A study of Mus musculus with 4 samples.

Results

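The chemokine ligands are the genes of the deposited RNA-seq table whose symbols follow the family names Ccl and Cxcl with a number, together with Cx3cl1, Xcl1, Pf4 and Ppbp. The rule used names alone and no measured value. It found 47 of the 47729 genes in the table, under 41 distinct symbols, since Ccl19, Ccl21a, Ccl21b, Ccl21c and Ccl27a have further annotated copies on scaffolds outside the chromosomes. Of these 47 genes, 11 were at 0 in every pool, 8 were above 0 but had a mean under 1 RPM (reads per 1000000 reads counted) and were not tested, and 28 were tested. Those 11 genes at 0 are Ccl20, Ccl26, Ccl27b, the copies of Ccl21a, Ccl21b and Ccl21c, and further copies of Ccl19 and Ccl27a.

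RNA came from tumors that LLC cells, a line derived from a Lewis lung carcinoma of C57BL/6 mice, formed under the skin of the back of syngeneic C57BL/6 mice and that were taken on day 5. The LLC group is labelled wild type, and the LLC-Chem group had been transfected with a plasmid encoding the bioactive form of murine chemerin, a leukocyte attractant that acts on the receptor CMKLR1. Each group is represented by 2 pools, and each pool combines 3 tumors, so that the spread between single tumors cannot be seen. Transfected cells were picked as individual clones after G418 selection, and a property of the clone cannot be told apart from the expression of chemerin.

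Fitted library totals ran from 28470000 to 33990000 reads, and 3 reads, taken as the least amount that can be shown, correspond to 0.0883 to 0.105 RPM. This limit covers counting error only. Rarres2, the gene of chemerin, measured 102.2 and 98.2 RPM in LLC tumors against 105.9 and 105.8 RPM in LLC-Chem tumors (log2 fold change 0.08, adjusted p = 0.541, limma), so the transcript does not tell the groups apart and every direction below rests on the labels. Whether transcripts of the plasmid were counted under Rarres2 is not given in the sources used here. Of the carcinoma markers, Krt8 and Krt18 lay between 82.75 and 167.1 RPM in the 4 pools, while Epcam did not exceed 0.1999 RPM. In limma's test on log2(RPM + 0.5) over 13694 genes, 9.54% were called higher and 13.5% lower in the LLC-Chem pools at an adjusted p under 0.05. With 2 pools against 2, an exact permutation test of a single gene cannot go below p = 0.33.

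Chemokines are small secreted proteins that bind receptors coupled to G proteins on leukocytes and other cells and direct their migration. Most inflammatory ligands sit in gene clusters that arose by duplication, share receptors, and are switched on by cytokines such as interleukin-1, tumor necrosis factor and interferon-gamma, in large part through the transcription factor NF-kappaB. Others, such as Cxcl12, are made steadily by stroma and vessels, and platelets store Pf4 and Ppbp.

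The promoters of Cxcl1, Cxcl2 and Cxcl3 are shown because these neighbouring duplicates attract neutrophils through the same receptor and hold the same run of letters for NF-kappaB, while Cxcl2 and Cxcl3 were lower in LLC-Chem tumors and Cxcl1 was not called, with higher values in both LLC-Chem pools. Each line gives the 250 bases that precede the RefSeq transcript start on the plus strand of GRCm38.p6, at chr5:90890995-90891244, chr5:90903649-90903898 and chr5:90785851-90786100 in this order, and capitals mark the match to the kappaB consensus.
Cxcl1: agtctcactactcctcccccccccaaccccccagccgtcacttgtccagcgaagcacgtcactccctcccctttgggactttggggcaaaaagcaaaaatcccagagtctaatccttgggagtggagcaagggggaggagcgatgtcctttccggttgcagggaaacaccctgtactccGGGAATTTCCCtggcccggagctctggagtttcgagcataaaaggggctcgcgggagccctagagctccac
Cxcl2: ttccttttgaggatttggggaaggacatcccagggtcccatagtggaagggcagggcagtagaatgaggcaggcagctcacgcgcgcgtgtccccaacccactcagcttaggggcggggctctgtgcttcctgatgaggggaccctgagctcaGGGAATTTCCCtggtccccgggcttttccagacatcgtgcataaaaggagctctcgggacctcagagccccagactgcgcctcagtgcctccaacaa
Cxcl3: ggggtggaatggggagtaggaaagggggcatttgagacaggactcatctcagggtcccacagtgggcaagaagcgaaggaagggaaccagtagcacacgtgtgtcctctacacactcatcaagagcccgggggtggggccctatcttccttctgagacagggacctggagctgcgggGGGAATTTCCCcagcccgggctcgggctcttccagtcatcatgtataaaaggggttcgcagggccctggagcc
In all 3 promoters the capitals are the 11 letters GGGAATTTCCC, which hold overlapping matches on both strands. They run from base 71 to base 61 before the start in Cxcl1, from base 97 to base 87 in Cxcl2 and from base 73 to base 63 in Cxcl3. The consensus, searched on both strands, occurred in 7 of the 29 ligand symbols that had a RefSeq promoter (Ccl1, Ccl9, Ccl20, Cxcl1, Cxcl2, Cxcl3 and Cxcl10). Per promoter it occurred in 7 of their 35, beside 7.25% of all 32851 mouse promoters of this length. A letter match is a description of the sequence, and binding of a factor was not measured.

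Among the 28 ligands tested, 2 were higher (9.54% of all genes tested) and 11 were lower (13.5% of all genes tested) in the LLC-Chem pools, and 15 were not called. The share called higher was no larger than that over all genes. The median log2 fold change of the ligands was −0.65, beside −0.04 over all genes tested. Both LLC-Chem pools lay above both LLC pools for 6 ligands (33.1% of all genes tested) and below them for 16 (39.3% of all genes tested), and the pools overlapped for the other 6. The higher ligands were Cx3cl1 and Ccl24. The lower ones were Cxcl2, Cxcl3, Ppbp, Cxcl9, Cxcl12, Cxcl16, Pf4, Ccl3, Ccl4, Ccl5 and Ccl11. Without any 1 of the 4 pools limma called no gene at all, and 2 to 5 ligands were higher and 9 to 14 lower at an unadjusted p under 0.05. Without the filter on low values no ligand was called, with 3 higher and 12 lower at an unadjusted p under 0.05, while edgeR on recovered reads called 3 higher and 10 lower.

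**Figure D1:**
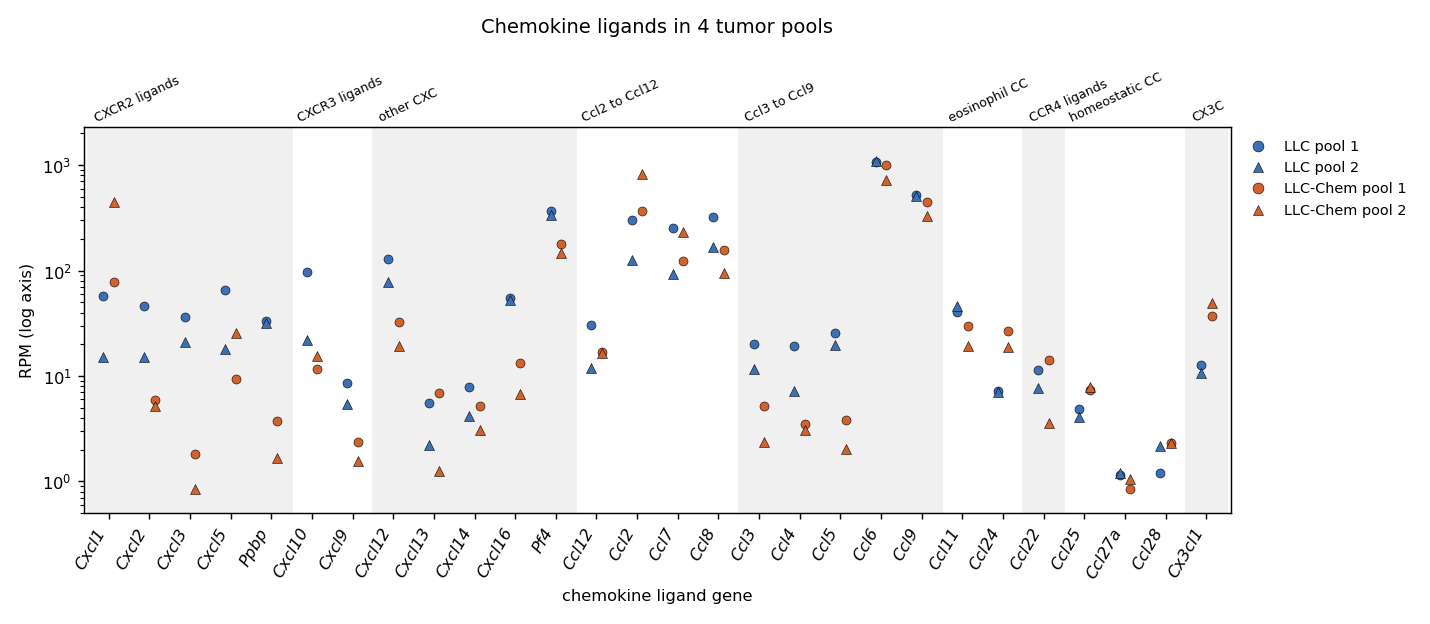
Level of the 28 tested chemokine ligands in RPM (log axis) in each of the 2 LLC and 2 LLC-Chem pools, with 1 point per pool and the ligands grouped by role. The LLC-Chem points of Cxcl3, Ppbp, Ccl5 and Cxcl16 sit below both LLC points, those of Cx3cl1 and Ccl24 sit above, and the points of Cxcl1 are spread from 15.04 to 447.8 RPM.

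The pools of a group differed in these genes more often than in most. The LLC pools differed over 2-fold for 9 of the 28 ligands, against 3.78% of all genes tested, and the LLC-Chem pools for 8 of the 28, against 2.92%. LLC replicate 1 was above LLC replicate 2 for 24 of the 28 ligands, against 57.9% of all genes. Cxcl1, Cxcl10 and Ccl2 were among the ligands with a wide spread, and none of these 3 passed the test. Ligands that were called also had such a spread. The LLC pools differed 3.06-fold for Cxcl2 and 2.65-fold for Ccl4. LLC-Chem replicate 2 was at 0.44 of replicate 1 for Ppbp, 0.456 for Ccl3 and 0.472 for Cxcl3.

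Markers of leukocytes moved with the groups. Of 30 tested markers of blood cells (42 listed), 17 were lower (13.5% of all genes tested) and 1 (Vcan) was higher (9.54% of all genes tested) in the LLC-Chem pools. These shares over all genes also apply to the counts of called genes in the lists below. The summed level of the lists was 6112 and 9063 RPM in LLC tumors against 4948 and 2958 RPM in LLC-Chem tumors. Ptprc, which encodes CD45, measured 124.5 and 124.3 RPM against 55.22 and 29.28 RPM (log2 fold change −1.62, adjusted p = 0.0218, limma). In RNA from whole tumors, fewer cells of a type and less RNA per cell cannot be told apart, and the part of these markers in the ligand results was not tested.

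The ligands of CXCR2, the receptor that draws neutrophils, included 3 that were lower and 1, Cxcl1, with higher values and no call. Cxcl3 (chr5:90786103-90789600) measured 36.48 and 20.94 RPM in LLC tumors against 1.799 and 0.8495 RPM in LLC-Chem tumors, or 28.7 ± 10.99 against 1.32 ± 0.671 (SD, n = 2 pools). Both LLC-Chem pools were far below both LLC pools, at a mean of 4.61% of the LLC level, with a log2 fold change of −4.00 (SE 0.369, adjusted p = 0.0093, limma). Cxcl2 measured 46.32 and 15.14 RPM against 5.897 and 5.197 RPM. Here too the groups did not overlap, and the log2 fold change was −2.16 (SE 0.497, adjusted p = 0.0355, limma), moving to −1.37 without LLC replicate 1 and −2.96 without LLC replicate 2. Without the trend in limma the call of Cxcl2 was lost (adjusted p = 0.0589).

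Cxcl1 lies between Cxcl3 and Cxcl2 on chromosome 5 and was the only tested member of the CXCR2 group with both LLC-Chem pools above both LLC pools. It measured 56.92 and 15.04 RPM in LLC tumors against 77.91 and 447.8 RPM in LLC-Chem tumors, or 36.0 ± 29.6 against 262.9 ± 261.6. The LLC-Chem pools differed 5.75-fold between themselves, and the log2 fold change of 2.65 (95% interval 0.29 to 5.01) did not pass the test (adjusted p = 0.0939, limma). It ranged from 1.39 to 3.91 when a single pool was left out. The ratio of Cxcl1 to Cxcl2 was 1.23 and 0.993 in the LLC pools and 13.2 and 86.2 in the LLC-Chem pools, and that of Cxcl1 to Cxcl3 was 1.56 and 0.718 against 43.3 and 527. These ratios do not depend on library scaling, and they were chosen after the values were seen, so they are given without a test. Only 5.84% of the 50-base stretches of the Cxcl2 transcripts also occur in Cxcl3, and Cxcl1 shared none with either.

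Ppbp, the precursor of a neutrophil-attracting peptide of platelets, measured 32.93 and 31.58 RPM against 3.748 and 1.649 RPM (log2 fold change −3.44, SE 0.332, adjusted p = 0.01, limma). Its LLC pools were nearly equal and both LLC-Chem pools were far below them, at a mean of 8.37% of the LLC level. Cxcl5, another CXCR2 ligand, overlapped between groups at 65.71 and 18.19 RPM against 9.445 and 25.69 RPM and was not called (adjusted p = 0.267). Cxcl15, a ligand of lung epithelium, did not reach a mean of 1 RPM. Summed over the CXCR2 ligands the level was 238.5 and 100.9 RPM in LLC tumors against 98.89 and 481.3 RPM in LLC-Chem tumors, and without Cxcl1 it was 181.6 and 85.85 RPM against 20.99 and 33.48 RPM. Cxcl1 thus made up 23.9% and 14.9% of the sum in the LLC pools and 78.8% and 93.0% in the LLC-Chem pools.

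**Figure D2:**
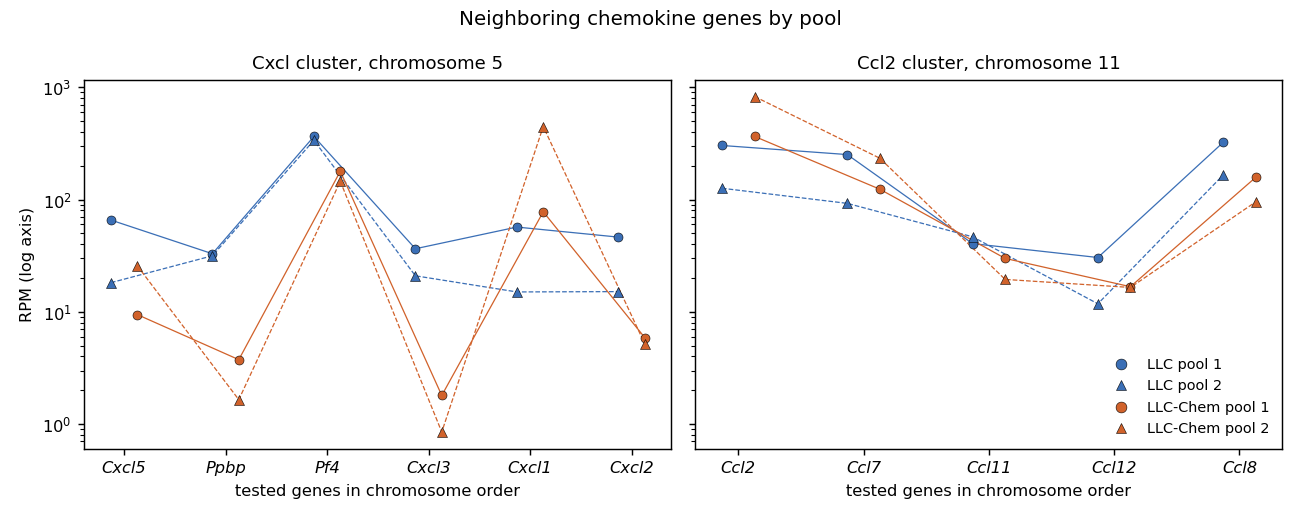
Level in RPM (log axis) of the ligands of the Cxcl cluster on chromosome 5 and of the Ccl2 cluster on chromosome 11 in each pool, in gene order, with LLC and LLC-Chem pools in separate colors. Within the first cluster the LLC-Chem points of Ppbp, Pf4, Cxcl3 and Cxcl2 lie below the LLC points and those of Cxcl1 lie above. Within the second the LLC-Chem points of Ccl2 lie above and those of Ccl11 and Ccl8 below.

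Cxcr2 itself, the receptor of these ligands, measured 11.74 and 5.547 RPM against 2.898 and 0.7496 RPM. Its groups did not overlap, but the log2 fold change of −2.06 missed the threshold (adjusted p = 0.0508, limma). All 3 neutrophil markers tested, of 6 listed, were lower, and the summed level of the 6 was 171.3 and 105.9 RPM against 40.03 and 16.84 RPM. The defining marker Ly6g was at 0.2 RPM or less in every pool. The part of neutrophils in the fall of Cxcl2 and Cxcl3 was not tested.

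The ligands of CXCR3, a receptor of activated T cells and NK cells, are induced by interferon-gamma. Cxcl9 measured 8.545 and 5.447 RPM in LLC tumors against 2.349 and 1.549 RPM in LLC-Chem tumors, lower in both (log2 fold change −1.60, SE 0.298, adjusted p = 0.0241, limma). Cxcl10 measured 95.95 and 21.84 RPM against 11.64 and 15.54 RPM and was not called (log2 fold change −1.73, adjusted p = 0.106). Both of its LLC-Chem pools were below the LLC pools, and its log2 fold change was −0.68 without LLC replicate 1 and −2.79 without LLC replicate 2. Cxcl11, annotated as a polymorphic pseudogene and at 3.55 and 0.45 RPM in the LLC pools and at 0 in both LLC-Chem pools, was not tested. Against a floor of 3 reads in 1 LLC-Chem library it was at least 22.3-fold lower, and at least 5.03-fold lower without LLC replicate 1, and 41.7% of its exon length lies under a gene of the other strand, from which its reads cannot be told apart where strand was not used.

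Cxcr3 itself was lower in the LLC-Chem pools, and Ifng, the inducer of its ligands, was barely detected. Cxcr3 measured 2.849 and 3.498 RPM against 1.149 and 0.5997 RPM (log2 fold change −1.44, adjusted p = 0.027, limma). Ifng did not exceed 0.4997 RPM in any pool, at 0.4997 and 0.1499 RPM in the LLC pools and 0.05 RPM in both LLC-Chem pools. In the list of the interferon-gamma axis 1 of 6 genes tested was lower, a share close to the 13.5% of all genes called lower. It was the receptor chain Ifngr2 (log2 fold change −0.56, adjusted p = 0.0187, limma), and Irf1 overlapped between groups. All 3 NK cell markers tested, of 4 listed, were lower, with sums over the 4 of 16.84 and 13.74 RPM against 3.198 and 1.149 RPM, and the 5 T cell markers summed to at most 6.346 RPM. The part of NK cells and T cells in the CXCR3 ligands was not tested.

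Of the other CXC ligands, 3 of 5 tested were lower and none was higher. Cxcl12, the ligand of CXCR4 made by stromal and endothelial cells, measured 129.2 and 78.41 RPM in LLC tumors against 32.23 and 19.24 RPM in LLC-Chem tumors, or 103.8 ± 35.9 against 25.7 ± 9.19 (log2 fold change −1.99, SE 0.321, adjusted p = 0.0181, limma). The groups were well apart. Of its receptors, Cxcr4 was lower, at 19.09 and 14.99 RPM against 6.146 and 2.898 RPM (log2 fold change −1.87, adjusted p = 0.0235). The scavenging receptor Ackr3 measured 91.8 and 195.4 RPM against 69.96 and 74.16 RPM and was not called (adjusted p = 0.107). Of 4 blood endothelial markers 3 were lower, with sums of 182.8 and 166.6 RPM against 54.47 and 32.28 RPM, while of 5 fibroblast markers 1 was higher and 2 were lower. The part of these cells in the level of Cxcl12 was not tested.

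Cxcl16, a membrane-bound ligand of CXCR6, measured 54.62 and 52.97 RPM against 13.39 and 6.696 RPM (log2 fold change −2.44, SE 0.308, adjusted p = 0.013, limma). The LLC pools were nearly equal and both LLC-Chem pools were far below them. Of its exon length 18.3% overlaps the neighbouring gene Zmynd15. Its receptor Cxcr6 was under the filter, at 1.399 and 1.099 RPM against 0.5497 and 0.1999 RPM. Cxcl13, the attractant of B cells, and Cxcl14 overlapped between groups and were not called (adjusted p = 0.871 and 0.368), and no B cell marker reached the filter.

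Pf4, platelet factor 4, was among the most abundant ligands. It measured 365.0 and 337.8 RPM in LLC tumors against 178.7 and 145.6 RPM in LLC-Chem tumors, or 351.4 ± 19.3 against 162.2 ± 23.4, a level of 46.2% (log2 fold change −1.12, SE 0.133, adjusted p = 0.0126, limma). Pf4 and Ppbp were thus both lower, and the ratio of Pf4 to Ppbp was 11.1 and 10.7 in the LLC pools and 47.7 and 88.3 in the LLC-Chem pools. The platelet and megakaryocyte marker Itga2b went the other way in its values, at 8.695 and 11.74 RPM against 13.39 and 16.99 RPM, without a call (adjusted p = 0.11). Gp1bb lay between 0.8995 and 1.549 RPM and overlapped between groups, while Gp6 and Gp9 did not exceed 0.0999 RPM in any pool. The part of platelets and of other cells in the fall of Pf4 and Ppbp was not tested.

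The monocyte-attracting ligands Ccl2, Ccl7, Ccl8 and Ccl12 are encoded with Ccl11 and Ccl1 in 270 kb of chromosome 11, and none of the 4 was called. Ccl2, the main monocyte attractant, measured 303.5 and 126.2 RPM in LLC tumors against 365.6 and 828.9 RPM in LLC-Chem tumors, or 214.8 ± 125.4 against 597.2 ± 327.6. Both LLC-Chem pools were above both LLC pools, and the log2 fold change of 1.49 (95% interval 0.18 to 2.80) did not pass the test (adjusted p = 0.0919, limma). It was 2.12 without LLC replicate 1, 0.86 without LLC replicate 2, 2.08 without LLC-Chem replicate 1 and 0.90 without LLC-Chem replicate 2. Ccl7 overlapped between groups at 251.9 and 92.55 RPM against 123.7 and 233.6 RPM, and Ccl12 at 30.48 and 11.79 RPM against 16.74 and 16.49 RPM (adjusted p = 0.841 and 0.753). Ccl8 measured 323.5 and 165.6 RPM against 158.0 and 95.5 RPM, below in both LLC-Chem pools without a call (log2 fold change −0.91, adjusted p = 0.125, limma). The value was −0.43 without LLC replicate 1 and −1.39 without LLC replicate 2. It was called under 2 of 15 alternatives, with adjusted p from 0.0264 to 0.537 over all 15.

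The ratios of Ccl2 to its neighbours were higher in the LLC-Chem pools. The ratio of Ccl2 to Ccl7 was 1.20 and 1.36 in the LLC pools and 2.96 and 3.55 in the LLC-Chem pools, and that of Ccl2 to Ccl8 was 0.938 and 0.762 against 2.31 and 8.68. The ratio of Ccl2 to Ccl12 was 9.96 and 10.7 against 21.8 and 50.3. In each of these 3 ratios, chosen after the values were seen and not tested, the groups did not overlap. Ccr2, the receptor of Ccl2, which brings monocytes out of the blood, measured 158.5 and 163.3 RPM against 70.76 and 44.28 RPM and was lower (log2 fold change −1.51, adjusted p = 0.0152, limma). Of the 4 monocyte markers, which include Ccr2, 3 were lower and Vcan was higher.

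The LLC-Chem pool with the most Cxcl1 also had the most Ccl2, and this was replicate 2. Of the 9 genes of the NF-kappaB list 6 were highest in the same pool, Birc3 was lowest there, and Nfkbie was highest in LLC replicate 1. Of these 6, Rela was at 120.5 RPM there against 115.6 RPM in LLC replicate 1. Nfkb2 was at 109.7 against 103.4 RPM and Relb at 47.47 against 40.88 RPM in LLC-Chem replicate 1. The share of all genes highest in that pool was not counted, and the part of NF-kappaB in Cxcl1 and Ccl2 was not tested. Nfkbia measured 178.8 and 144.3 RPM in LLC tumors against 176.1 and 435.2 RPM in LLC-Chem tumors, and Tnfaip3 39.98 and 28.53 RPM against 26.19 and 90.65 RPM. Nfkbiz, at 71.31 and 49.17 RPM against 88.15 and 186.8 RPM, followed the same order within the LLC-Chem group. None of these 3 was called (adjusted p = 0.203, 0.508 and 0.081, limma). Birc3 alone of the 9 NF-kappaB genes was lower (log2 fold change −0.65, adjusted p = 0.0331, limma), no larger a share than the 13.5% of all genes called lower. Of the inducing cytokines 3 of 7 tested were lower (13.5% of all genes tested), with their lowest value in LLC-Chem replicate 2. Il1b measured 63.62 and 26.24 RPM against 8.395 and 2.998 RPM (log2 fold change −2.89, adjusted p = 0.0265), and Tnf 11.09 and 6.147 RPM against 2.848 and 1.499 RPM (log2 fold change −1.76, adjusted p = 0.0308). Il1a was lower as well (adjusted p = 0.0298). Il6 (log2 fold change −1.90) and Il4 (log2 fold change 0.83), both with more in LLC-Chem replicate 2 than in replicate 1, missed the threshold (adjusted p = 0.0585 and 0.0567).

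Ccl3, Ccl4, Ccl5, Ccl6 and Ccl9, attractants of macrophages, monocytes and T cells, comprised 3 that were lower and 2 that were not called. Ccl5, made by T cells, NK cells and macrophages, measured 25.59 and 19.49 RPM in LLC tumors against 3.798 and 2.049 RPM in LLC-Chem tumors, at 13.0% of the LLC mean (log2 fold change −2.79, SE 0.299, adjusted p = 0.0116, limma). Ccl3 measured 20.04 and 11.59 RPM against 5.147 and 2.349 RPM (log2 fold change −1.97, SE 0.408, adjusted p = 0.029). Ccl4, its neighbour, measured 19.09 and 7.196 RPM against 3.498 and 3.098 RPM (log2 fold change −1.69, SE 0.44, adjusted p = 0.0463), and was −1.02 without LLC replicate 1 and −2.37 without LLC replicate 2. Without the trend in limma the call of Ccl4 was lost (adjusted p = 0.0693). In all 3 genes both LLC-Chem pools were below both LLC pools.

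Ccl6 and Ccl9, ligands of CCR1 made mainly by macrophages and other myeloid cells, were the most abundant ligands in RPM in the LLC pools, while in LLC-Chem replicate 2 Ccl2 exceeded both. Ccl6 measured 1065 and 1095 RPM in LLC tumors against 1004 and 718.6 RPM in LLC-Chem tumors, and Ccl9 521.0 and 512.8 RPM against 444.9 and 331.3 RPM. Both were below the LLC pools in each LLC-Chem pool, further in replicate 2 than in replicate 1, and were not called (log2 fold changes −0.35 and −0.43, 95% intervals −0.83 to 0.13 and −0.84 to −0.02, adjusted p = 0.225 and 0.11, limma). Their ratio stayed between 2.04 and 2.26 in the 4 pools. Their receptor Ccr1 was lower, at 75.66 and 68.96 RPM against 46.47 and 31.23 RPM (log2 fold change −0.91, adjusted p = 0.0322). Of 9 macrophage markers 3 were lower, with sums of 5049 and 8169 RPM against 4218 and 2305 RPM, and their part in these ligands was not tested.

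The eosinophil attractants that act on CCR3 moved in opposite directions. Ccl24 (chr5:135569937-135573049), made by alternatively activated macrophages among other cells, measured 7.146 and 7.096 RPM in LLC tumors against 26.83 and 18.89 RPM in LLC-Chem tumors, a 3.21-fold higher mean (log2 fold change 1.60, SE 0.205, adjusted p = 0.0133, limma). The LLC pools were nearly equal and both LLC-Chem pools were clearly above them. Ccl11, made by fibroblasts and epithelium, measured 40.53 and 46.62 RPM against 29.93 and 19.44 RPM (log2 fold change −0.84, SE 0.22, adjusted p = 0.0475). Its groups did not overlap, but the call was kept under only 4 of 15 alternatives, and was lost with TMM scaling and with edgeR among others. Their receptor Ccr3 was lower, at 1.949 and 2.149 RPM against 0.8995 and 0.4498 RPM (adjusted p = 0.0424).

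Cx3cl1 (chr8:94772009-94782427), or fractalkine, a ligand with a membrane-bound form on endothelium and epithelium, was the ligand with the firmest rise. It measured 12.64 and 10.74 RPM in LLC tumors against 37.08 and 48.97 RPM in LLC-Chem tumors, or 11.7 ± 1.34 against 43.0 ± 8.41, 3.68-fold higher (log2 fold change 1.83, SE 0.182, adjusted p = 0.0102, limma). Its receptor Cx3cr1 went down, at 4.897 and 6.746 RPM against 1.999 and 0.6996 RPM (log2 fold change −1.85, adjusted p = 0.0309). The other ligands within 66.4 kb of Cx3cl1 on chromosome 8 are those of CCR4, and both overlapped between groups. Ccl22 measured 11.29 and 7.696 RPM against 14.24 and 3.598 RPM (adjusted p = 0.69), and Ccl17 did not exceed 0.9 RPM.

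**Figure D3:**
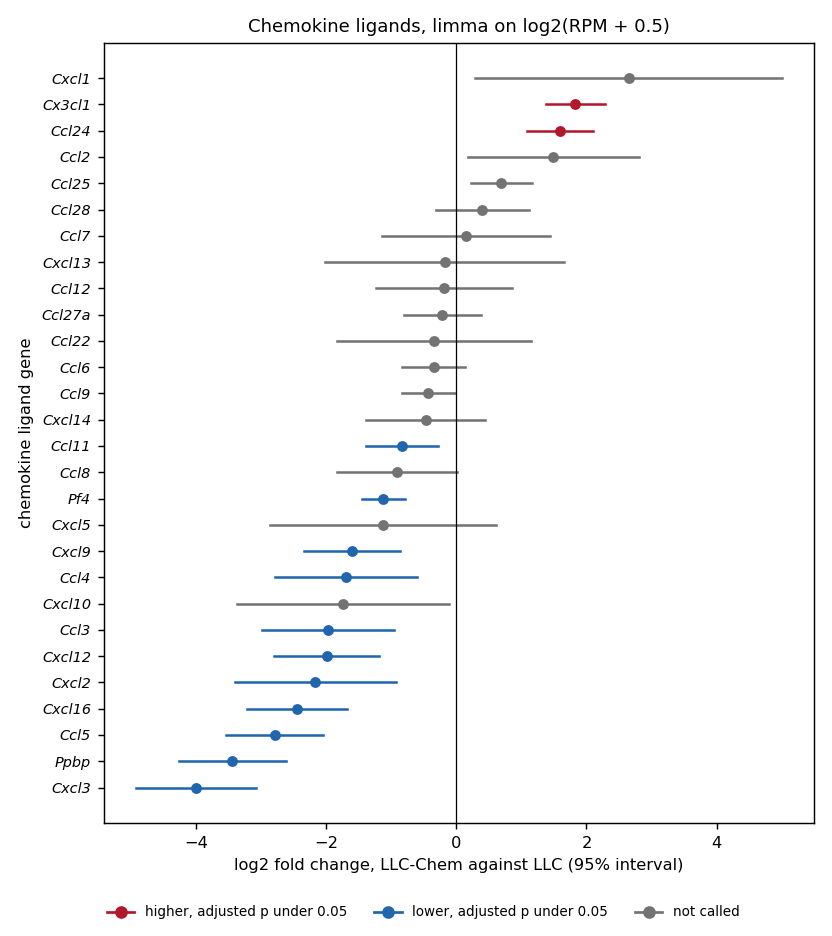
Log2 fold change of LLC-Chem against LLC on the log2(RPM + 0.5) scale for the 28 tested ligands, with 95% intervals from limma as bars and colors for the call. Of the 28 ligands 21 lie below 0, with 13 intervals wholly below it, and 11 of these were called lower. Cx3cl1 and Ccl24 lie above 0 and were called higher, and the intervals of Cxcl1 (0.29 to 5.01) and Ccl2 (0.18 to 2.80) are wide.

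Few reads were counted for ligands that guide lymphocytes in lymphoid organs, gut and skin. Ccl25, the thymic and intestinal ligand of CCR9, measured 4.897 and 4.098 RPM against 7.296 and 7.796 RPM. Its LLC-Chem pools were above the LLC pools and it fell just short of the threshold (log2 fold change 0.69, SE 0.187, adjusted p = 0.0502, limma), which it passed under 6 of 15 alternatives, with adjusted p from 0.0258 to 0.302 over all 15. Ccl28 and Ccl27a, skin and mucosal ligands of CCR10, lay between 0.8495 and 2.299 RPM and were not called (adjusted p = 0.329 and 0.531), and 45.0% of the 50-base stretches of Ccl27a also occur in other genes. Xcl1, the attractant of cross-presenting dendritic cells, was at 1.10 and 0.50 RPM against 0.15 and 0.05 RPM and was not tested.

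Of 17 chemokine receptors listed, 10 were tested, 7 were lower (13.5% of all genes) and none was higher in the LLC-Chem pools, and both LLC-Chem pools lay below both LLC pools for 9 (39.3% of all genes). Ccr6, the receptor of the undetected Ccl20, showed the widest gap, at 18.19 and 14.99 RPM in the LLC pools and 0.05 RPM, under the limit of 3 reads, in both LLC-Chem pools (adjusted p = 0.00233, limma). Ccr7, the homing receptor of dendritic cells and T cells, was not called (adjusted p = 0.105). Of 4 atypical receptors tested, which bind ligands without signalling through G proteins, 2 were lower, and these were Ackr1 at 13.29 and 14.24 RPM against 7.496 and 6.996 RPM (log2 fold change −0.88, adjusted p = 0.0219) and Ccrl2 (log2 fold change −1.13, adjusted p = 0.0472). Receptors and leukocyte markers are measured in the same RNA, and the part of leukocytes in the fall of the receptors was not tested.

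**Figure D4:**
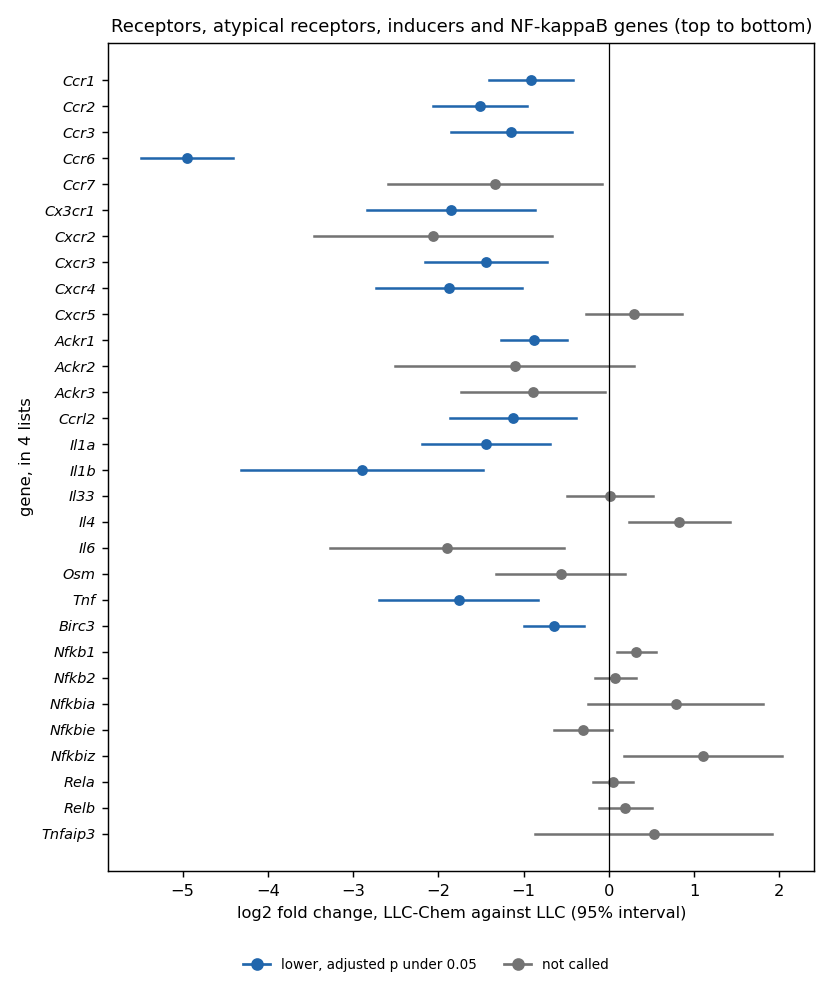
Log2 fold change of LLC-Chem against LLC on the log2(RPM + 0.5) scale with 95% intervals from limma for chemokine receptors, atypical receptors, inducing cytokines and NF-kappaB genes, colored by the call. Of the 10 receptors tested 9 lie below 0, of which 7 were called lower, and among the 9 NF-kappaB genes Birc3 alone was called.

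Of 9 genes for ligand trimming and for the glycosaminoglycans that hold chemokines on cell surfaces, 2 were higher and none was lower, where 9.54% of all genes were called higher. Sdc2, a cell surface heparan sulfate proteoglycan, measured 157.2 and 157.7 RPM in LLC tumors against 294.0 and 326.8 RPM in LLC-Chem tumors (log2 fold change 0.98, adjusted p = 0.0116, limma). Hs2st1, an enzyme that sulfates heparan chains, rose by less (log2 fold change 0.39, adjusted p = 0.0379). Over the 6 pathway lists together 2 of 45 genes tested were higher (9.54% of all genes tested) and 14 were lower (13.5% of all genes tested). The share called higher was below that over all genes.

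Compared per length, as RPM per kb of annotated exons, the ligands ranked as follows by their means. Ccl6 was first in the LLC pools at a mean of 601.6 RPM per kb, followed by Pf4 at 487.4 and Ccl8 at 478.5 RPM per kb. In the LLC-Chem pools Ccl2 came first at 524.8 RPM per kb, from 188.8 in the LLC pools, and Ccl6 followed at 479.8 RPM per kb. Cxcl1 went from 19.19 to 140.2 RPM per kb and from rank 15 to rank 6, and Ppbp from 29.79 to 2.492 RPM per kb and from rank 9 to rank 22. The LLC-Chem mean of Cxcl1, which was not called, rests on pools at 41.55 and 238.8 RPM per kb. In LLC replicate 1 Ccl8, at 633.0 RPM per kb, was above Ccl6, at 593.2. The LLC pools of Ccl8 span those of Ccl6 and Pf4, and the LLC-Chem pools of Ccl2 span those of Ccl6, so these neighbouring ranks do not differ beyond their spread.

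The sum of all ligands did not separate the groups, at 3549 and 2727 RPM in LLC tumors against 2594 and 3009 RPM in LLC-Chem tumors. Without Ccl2 and Cxcl1 it was 3189 and 2586 RPM against 2151 and 1732 RPM, and the groups did not overlap. Ccl2 and Cxcl1 together held 10.2% and 5.18% of the sum in the LLC pools and 17.1% and 42.4% in the LLC-Chem pools. Ccl6 and Ccl9 held 44.7% and 59.0% against 55.8% and 34.9%, which overlapped. The sums were split in this way after the values were seen and carry no test.

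**Figure D5:**
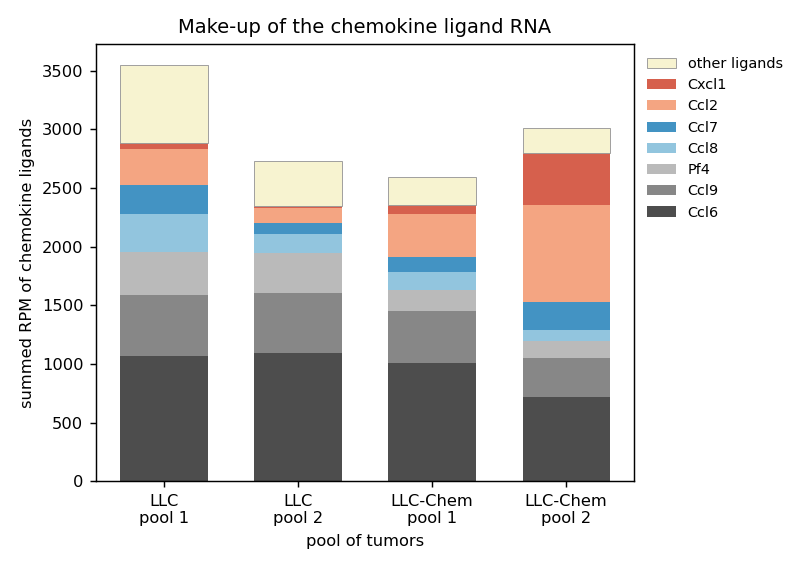
Summed level of all chemokine ligands in RPM in each pool as stacked bars, divided into Ccl6, Ccl9, Pf4, Ccl8, Ccl7, Ccl2, Cxcl1 and all other ligands. The totals run from 2594 to 3549 RPM and overlap between the groups, and the segments of Ccl2 and Cxcl1 are widest in LLC-Chem replicate 2.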

How the data were processed

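Per the labels and the study's methods, RNA from 2 pools of tumors per group was sequenced as TruSeq libraries in paired-end mode, reads were mapped with STAR to GRCm38.p4 and counted on genes with HTSeq, and the authors deposited RPM for 47729 genes. Versions of these tools and the use of strand are not given in the sources used here. The RPM came out as whole steps for 100% of the values (tolerance 0.05 of a step). Library totals were estimated by a fit to the pattern of the low steps. The recovered reads were computed from steps and fitted totals and are estimates too.

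The groups were compared on log2(RPM + 0.5) by the moderated linear model of limma 3.58.1 under R 4.3.3 (lmFit, eBayes with trend, two-sided). Genes whose mean reached 1 RPM entered the fit (13694), p-values were adjusted over all of these by Benjamini-Hochberg, and a gene was called at an adjusted p under 0.05. Fold changes on this scale understate the change of low genes. The study's own comparison used edgeR on counts. On the recovered reads, edgeR 4.0.16 (quasi-likelihood) called 1551 genes higher and 1600 lower, and DESeq2 1.42.0 called 1876 and 2271. The pools are separate animals, but whether cultures were separate is not stated, so p-values measure the spread between these pools.

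Every ligand could be named, ordered by role, as could genes of the pathway lists that were called or are receptors of a named ligand, and markers that were called or define a cell type. A gene of the pathway lists was left out of them and is not reported here. The members and lists were chosen with earlier results of these data known. Ratios and sums of ligands, and a few list genes beyond this rule, were chosen after their values were seen. The alternatives were pseudocounts of 0.1 and 1, TMM and median-of-ratios scaling, no filter, a filter at 0.5 RPM, no trend, the replicate number as a block, the tests on recovered reads, and leaving out each pool. A crossed block was added after the data were seen. Scripts were tested on simulated data. Gene positions, exon lengths and 50-base stretches are from GENCODE M21 on GRCm38, and promoters from RefSeq on GRCm38.p6, matched by symbol for 29 of 41 symbols. Plots were made with Python 3.11.15 and matplotlib 3.10.9.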

Additional observations from a re-analysis of the deposited data

How the results depend on the processing

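With no filter on low values, limma called 0 ligands higher and 0 lower (3 and 12 at an unadjusted p under 0.05), 0 and 0 genes of the pathway lists, and 1 and 0 of all genes. Leaving out any 1 pool gave 0 calls (lowest 0, highest 0) in each direction for ligands, pathway lists and all genes, with 2 to 5 ligands higher and 9 to 14 lower at an unadjusted p under 0.05, and the lone pool of a group was assumed to vary like those of the other group. Same-numbered pools deviated with r = −0.14 over 13694 genes, so the numbers were not taken to pair them. The replicate block called 549 genes higher and 1064 lower, 2 and 11 ligands, and 1 pathway gene higher and 9 lower. The crossed block called 1579 and 2320 genes, 4 and 13 ligands, and 4 and 20 pathway genes. TMM scaling called 4 and 14 pathway genes, and DESeq2 4 and 18. Without the trend limma called 3 ligands higher and 8 lower (891 and 1271 of all genes), losing Cxcl2, Ccl4 and Ccl11. edgeR called 3 ligands higher and 10 lower, and DESeq2 3 and 12.

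Over 28 ligands and 15 alternatives, 327 of 420 comparisons kept direction and side of the threshold, 73 lost the call, 12 gained it and 8 changed sign, all for ligands whose pools overlap. When single pools were left out, the log2 fold change ranged from −0.86 to 0.48 for Ccl12 (0.48 without LLC replicate 1) and from −1.26 to 0.58 for Ccl22 (0.58 without LLC-Chem replicate 2). That of Ccl7 ranged from −0.57 to 0.87, and was −0.57 and −0.30 without LLC replicate 2 and LLC-Chem replicate 2. That of Cxcl13 ranged from −1.21 to 0.86, was 0.41 and 0.86 without LLC replicate 1 and LLC-Chem replicate 2, and became 0.105 with edgeR and 0.0943 with DESeq2. Apart from the fewer samples in the leave-one-out fits, the cause of these changes was not tested. Ligands under 0.0883 to 0.105 RPM could not be detected at this depth.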
